A study of Drosophila melanogaster with 3 samples.

Results

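The 9 fly cell death genes hid, grim, rpr, skl, Diap1, p53, Dronc, Drice and Dark were examined for Sox100B-GFP binding, together with the stretch of chromosome arm 3L from hid to rpr. The genes were taken by name from Ensembl release 115, which places 13945 protein-coding genes on the 6 arms. A region counted for a gene when its summit, the peak of signal within it, lay in the gene or up to 10 kb either side. By this rule 19 regions of the authors' IDR list, those that passed a cut on the irreproducible discovery rate (IDR) between replicates, lay at the genes, and the stretch held 18, of which 2 were among the 19, so that 35 of 5683 IDR regions are described.

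Binding was mapped by chromatin immunoprecipitation and sequencing in 1 group of 3 biological replicates of whole embryos, aged 6 to 16 h and of mixed sex. The line is transgenic and expresses Sox100B, a group E Sox factor of the HMG-box family, with GFP at its C terminus, so the protein mapped is a fusion and every cell type of the embryo contributed chromatin. The antibody label names Sox100B although a free-text label calls the samples an input control, and they were taken here as immunoprecipitates. There is no other genotype, treatment or stage, so the results are positions, ranks and counts with no comparison between conditions. Each of the 3 replicate lists and the pooled list holds 30000 regions, and the IDR list holds exactly the 5683 regions of highest signal in the pooled list, so the IDR and pooled ranks are the same number and the replicates behind them are not independent of it. Signal is the authors' value per region, on a scale not stated, and can be compared only within a list. A rank of 1 is the highest signal of a list, replicate ranks are those of the strongest overlapping region in replicates 1, 2 and 3 in turn, and a gene with no listed region may still carry signal below the end of a list. Read depth is unknown.

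Apoptosis in the fly is held in check by Diap1, an inhibitor of apoptosis protein that blocks the initiator caspase Dronc and the effector caspase Drice. The proteins hid, grim, rpr and skl bind Diap1 and free the caspases. Dark, the fly relative of Apaf-1, assembles the complex that activates Dronc. The transcription factor p53 switches on several of the inducer genes after DNA damage. The inducer genes lie near each other on 3L, with few other genes and long intergenic sequence between them, part of which is known to hold enhancers of cell death genes.

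The sequences below run from 100 bp before to 100 bp after a summit, plus strand, dm6. They are a selection. At hid they cover the region next to the start and the second region. Between the inducer genes they cover the strongest region and the intergenic window with a pair of Sox matches. The others are the farther region upstream of rpr and the strongest region at Diap1. Capitals mark the Sox core, ACAAAG or ACAATG read on either strand, so that CTTTGT and CATTGT are the same cores on the other strand.
Strongest region between hid and grim, chr3L:18236490-18236690: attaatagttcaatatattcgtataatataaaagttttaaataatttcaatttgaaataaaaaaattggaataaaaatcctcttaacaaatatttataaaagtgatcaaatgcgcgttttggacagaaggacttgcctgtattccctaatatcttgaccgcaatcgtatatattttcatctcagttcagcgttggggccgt
hid, next to the start site, chr3L:18185876-18186076: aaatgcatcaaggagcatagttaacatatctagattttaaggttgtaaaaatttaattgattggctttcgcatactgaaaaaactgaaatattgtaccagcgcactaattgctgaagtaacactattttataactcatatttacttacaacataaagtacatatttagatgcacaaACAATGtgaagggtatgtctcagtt
hid, second region, chr3L:18192885-18193085: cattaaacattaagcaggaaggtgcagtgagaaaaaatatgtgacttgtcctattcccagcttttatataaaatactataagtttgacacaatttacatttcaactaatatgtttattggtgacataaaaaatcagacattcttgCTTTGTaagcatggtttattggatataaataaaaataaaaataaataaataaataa
Between hid and grim, pair of cores, chr3L:18272361-18272561: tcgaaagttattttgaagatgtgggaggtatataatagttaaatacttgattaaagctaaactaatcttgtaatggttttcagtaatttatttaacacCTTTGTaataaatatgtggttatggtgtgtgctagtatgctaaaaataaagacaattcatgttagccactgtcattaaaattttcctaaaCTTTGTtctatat
rpr, farther region, chr3L:18403315-18403515: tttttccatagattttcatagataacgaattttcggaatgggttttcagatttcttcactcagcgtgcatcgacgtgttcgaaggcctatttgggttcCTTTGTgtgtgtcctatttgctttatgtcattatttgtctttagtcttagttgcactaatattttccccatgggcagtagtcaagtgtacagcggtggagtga
Diap1, strongest region, chr3L:16046121-16046321: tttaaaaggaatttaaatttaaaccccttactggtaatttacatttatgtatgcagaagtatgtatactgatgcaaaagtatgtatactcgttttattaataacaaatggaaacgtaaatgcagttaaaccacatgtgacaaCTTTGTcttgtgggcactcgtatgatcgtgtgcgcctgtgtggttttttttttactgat

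These windows do not represent the 35 regions, of which 13 hold a Sox core. The stronger rpr region, of rank 3033, holds none and is not printed. The strongest window between the inducer genes holds no core. The farther rpr window and the intergenic window with a pair of cores each have a core that starts 2 bp before the summit. In the remaining windows the core lies to one side and starts 76 bp and 45 bp past the summit at hid and 42 bp past it at Diap1.

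hid (FBgn0003997, chr3L:18167745-18185641, minus strand) had 2 IDR regions, both upstream of its single annotated transcription start site (TSS). The nearer one, chr3L:18185758-18186172, had its summit 335 bp upstream, a signal of 748 and rank 766 in the pooled list, and ranked 982, 624 and 917 in the replicates. The farther one, chr3L:18192829-18193212, lay 7344 bp upstream with a signal of 630, rank 1006, and ranks of 771, 1318 and 1056. The replicates ordered these 2 regions differently: replicate 1 placed the farther one higher and replicates 2 and 3 the nearer one. The summits of the overlapping replicate regions lay within 82 bp and 22 bp of each other. No IDR summit fell in the 17.9 kb hid gene itself. The pooled list had 5 summits there, all weak, with ranks from 16080 to 27157 and no q-value under 0.05. None of the 5 was overlapped by a region in every replicate.

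rpr (FBgn0011706, chr3L:18397535-18398435, minus strand) also had 2 IDR regions upstream, both weaker than those of hid. The first, chr3L:18402623-18402810, lay 4327 bp from the TSS with a signal of 291 and rank 3033, and the replicates placed it within a narrow band at 3271, 3252 and 3434. The second, chr3L:18403184-18403647, lay 4980 bp upstream with a signal of 189 and rank 5100, close to the end of the IDR list. Replicates 2 and 3 ranked it 4685 and 4370 and replicate 1 only 17604, so 1 library stood far below the others at this site.

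grim (FBgn0015946, chr3L:18302719-18304417, minus strand) and skl (FBgn0036786, chr3L:18438561-18439942, minus strand) had no IDR summit within 10 kb. The best pooled region at grim ranked 8712, and the best replicate regions ranked 9964, 13933 and 8821. At skl the best pooled rank was 10037 and the best replicate ranks were 9131, 12076 and 12158. All of these lie past the 5683 ranks that the IDR list covers. The IDR summit nearest to the grim TSS was 23.0 kb away on the hid side, in chr3L:18281260-18281635, with a signal of 609 and rank 1066. The one nearest to skl was 21.2 kb away, had rank 577 and lay 165 bp from the TSS of another gene, CG32196.

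**Figure D1:**
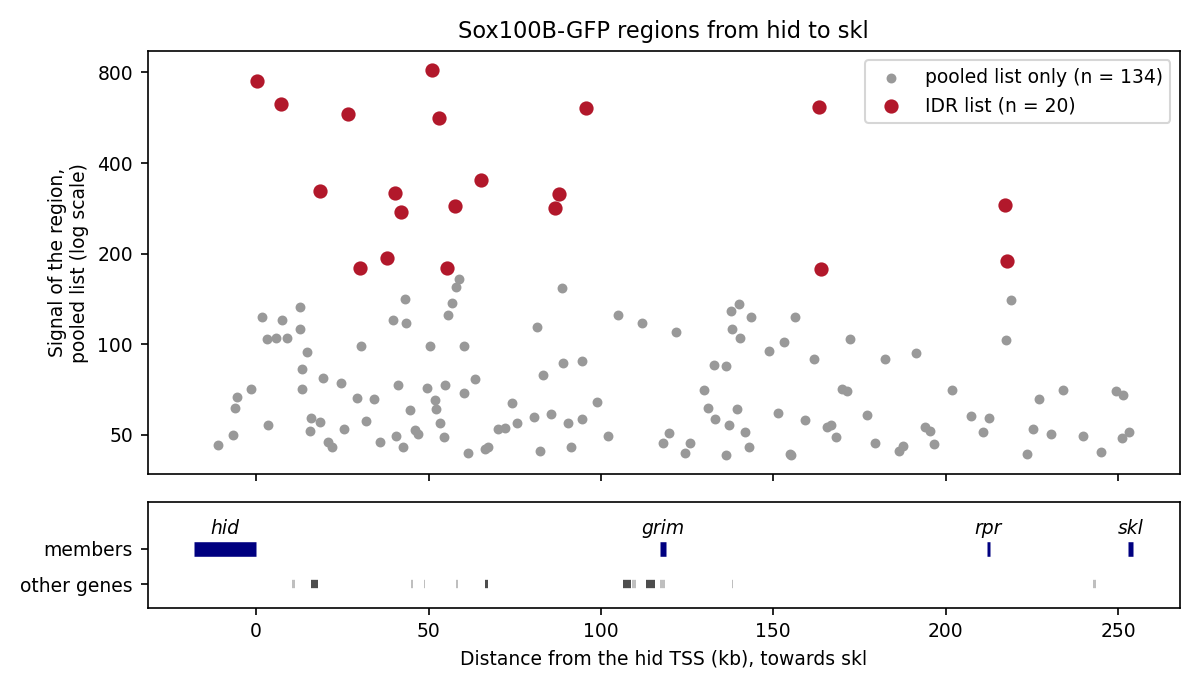
Signal of every pooled region from hid to skl (log axis) against distance from the hid TSS in kb, with IDR regions in red, the other pooled regions in grey, and genes drawn to scale beneath (dark grey, protein-coding; light grey, non-coding). Of the 20 IDR summits, 16 lie between hid and grim, and none lies in the 67.3 kb around grim.

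The stretch from hid to rpr (chr3L:18167745-18398435, 231 kb) held 18 IDR summits and all of them were intergenic with respect to annotated genes. No share over all IDR regions stands beside this count, and the stretch has few genes. The count is therefore not read as a feature of the binding. The summits were unevenly spread. The 117 kb between hid and grim held 16, or 13.7 per 100 kb, whereas the 93.1 kb between grim and rpr held 2, or 2.15 per 100 kb. In steps of 50 kb from the hid TSS, the first held 8 IDR summits, the second 8, the next none and the next 2. The last step, cut short where the stretch ends at rpr, held none. The 2 IDR regions upstream of rpr lie just past that end and were not counted in it. The 4 inducer genes lay in gaps between IDR summits of 37.4 kb for hid, 67.3 kb for grim, 53.3 kb for rpr and 57.8 kb for skl.

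The strongest region of the stretch, chr3L:18236285-18236736, lay 50949 bp upstream of the hid TSS and 15498 bp from the nearest annotated TSS of a protein-coding gene, that of CheA75a. Its signal was 815 and its rank 646, above that of the region at the hid start site, and the replicates ranked it 446, 766 and 723. Replicate 2 reversed this order, with the region at the hid start site at 624. In the strongest region of the stretch the replicate summits fell within 8 bp of each other, the smallest span among the 35 regions. Next to it, 53093 bp upstream of hid, chr3L:18238552-18238919 had a signal of 566 and ranks of 1527, 1073 and 1484. A further region at 26729 bp upstream, chr3L:18212183-18212598, ranked 1190, 1224 and 1204 in the replicates, nearly the same place in each list. On the far side of grim, chr3L:18348587-18348977 had a signal of 615 and rank 1050, but its replicate ranks of 618, 1841 and 987 were more spread.

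The genes within the stretch that were nearest to an IDR summit were few. CheA75a was the nearest protein-coding gene to 7 of the summits, CG7320 to 5, and hid, CG5103 and grim to 2 each. Of these 18 summits, 1 (5.56%), at hid, lay within 1 kb of a protein-coding TSS, against 43.5% of all IDR regions. The closest to CheA75a was 1203 bp upstream of its TSS, with a signal of 352. The non-coding gene lncRNA:CR45936 had an IDR summit 384 bp upstream, of signal 289 and rank 3060. No function is given here for these genes.

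**Figure D2:**
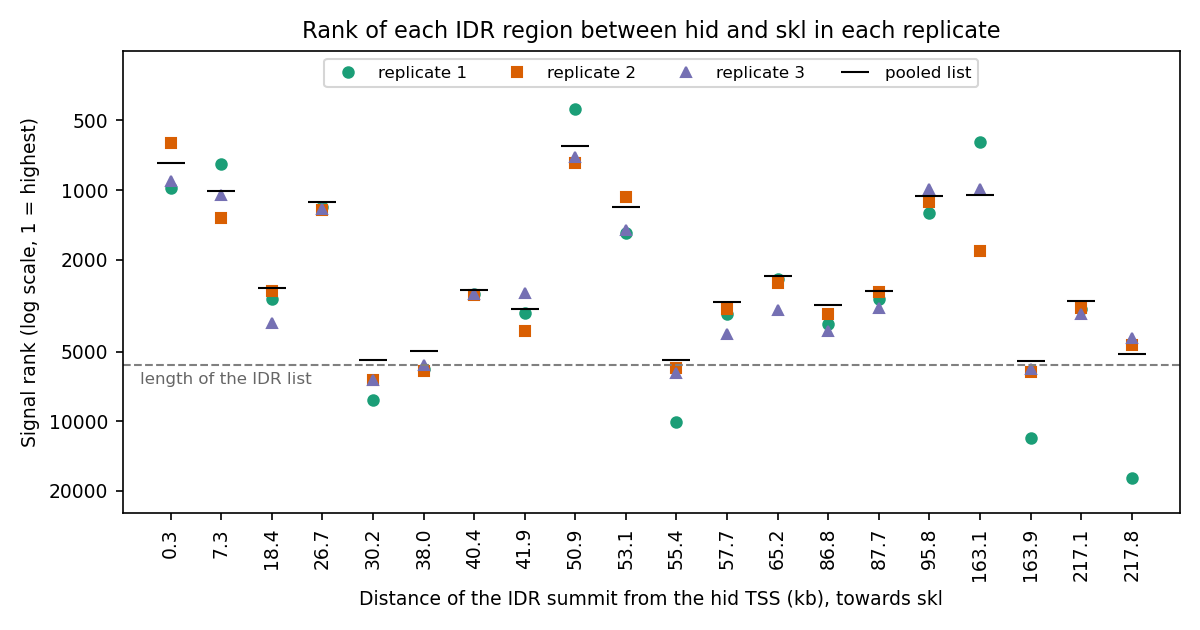
Signal rank of each of the 20 IDR regions from hid to skl in the 3 replicates (symbols) and the pooled list (bars), on a log axis with the highest signal at the top, ordered by distance from the hid TSS in kb. Points below the dashed line rank past 5683; 4 regions have all 3 replicates there, and the last region has replicate 1 alone, at 17604.

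Not every IDR region of the stretch was strong in the replicates. In 4 of the 18, with pooled ranks of 5439, 4982, 5412 and 5470, none of the 3 replicates ranked its overlapping region within the first 5683. Replicate 1 was lowest in 3 of these, at 8085, 10112 and 11858, while replicate 2 was lowest in the other, where the ranks were 5927, 6057 and 5721. Over all 35 regions, 28 (80.0%, exact 95% interval 63.1 to 91.6) were overlapped by one of the 5683 strongest regions in each replicate, and 71.0% of all IDR regions met the same rule. Single replicates overlapped 83.8% ± 4.36 (SD, n = 3) of the 35. These intervals cover the counting of regions only, and neighbouring regions are not independent. In the overlapping pairs of IDR regions at Diap1 and p53, the same replicate regions counted for both regions of the pair.

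IDR summits were 7.80 per 100 kb in the stretch and 4.70 per 100 kb in the rest of 3L, a ratio of 1.66 with an exact 95% interval of 0.982 to 2.64 that includes equal density. Cut into windows as long as the stretch, the arms gave 577 windows with a median of 9 IDR summits and quartiles of 4 and 14. Of these windows 15.3% held 18 or more. On 3L alone, 24 of 121 windows did. Parts of the arms with few or no listed regions were kept in the densities and the windows. Of the 577 windows, 27 held no pooled summit. The pooled list, labelled as peaks and background for input to IDR, gave other counts, and some of its regions overlap each other. It had 139 summits in the stretch, against a median of 50 per window, and 1.04% of windows held as many. Among the latter were windows of chromosome 4, with 140, 141 and 173 pooled summits. Of the stretch's pooled summits 12.9% were IDR regions, against 18.9% over all arms. The other 121 ranked from 5992 to 29847 with a median of 19184, and 21 of them had a q-value under 0.05. Over all arms, 9948 of the 30000 pooled regions had one, among them all 5683 IDR regions. All 3 replicates had a region overlapping 43 of the 121, and 8 were overlapped by none. No share over all arms stands beside the 43 and the 8, so they only describe the stretch.

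**Figure D3:**
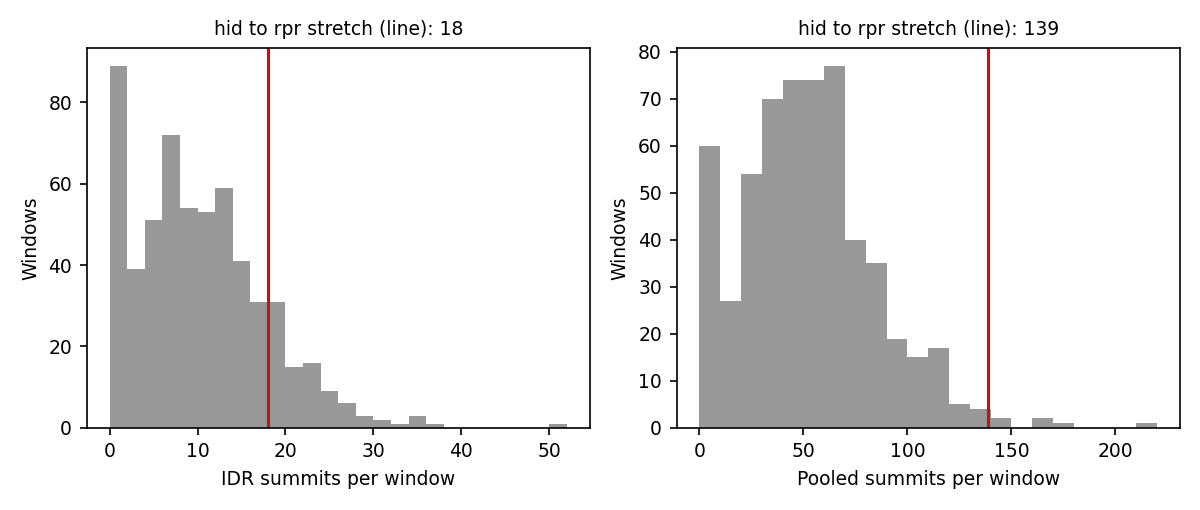
Number of IDR summits (left) and pooled summits (right) in 577 windows as long as the hid to rpr stretch, with the stretch as a red line. The stretch lies at 18 IDR summits, where 15.3% of windows reach or pass it, and at 139 pooled summits, where 1.04% do.

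Diap1 (FBgn0260635, chr3L:16038410-16051034, minus strand, 5 TSSs) had 10 IDR regions in the gene or within 10 kb, the most of any of the 9 genes. Of all protein-coding genes, 0.495% had 10 or more. That share is not matched for gene length: Diap1 is 12625 bp long, against a median of 2166 bp. Only 5 of the 10 had a Diap1 TSS as the nearest one; 4 lay nearest to Mbs, a divergent neighbour that encodes the myosin-binding subunit of myosin phosphatase, and 1 to CG5895. The strongest, chr3L:16045790-16046423, lay in a Diap1 intron 625 bp downstream of an internal TSS, with a signal of 812 and rank 652. The replicates ranked it 672, 1083 and 343, so replicate 3 placed it highest and replicate 2 lowest.

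The other regions at Diap1 were weaker, with ranks from 1500 to 5661. In a 5′ UTR, a pair of overlapping IDR regions had summits 201 bp downstream and 2 bp upstream of a Diap1 TSS, with signals of 290 and 173. Replicates 2 and 3 also listed both summits: near the downstream one they ranked 3298 and 2956, and near the upstream one 16425 and 20595. Replicate 1 listed a single region there, at rank 2629, with its summit 14 bp from the upstream one. The replicates thus differed on which of the summits was the stronger. Between Diap1 and Mbs, chr3L:16051403-16051866 lay 600 bp upstream of Diap1 and 325 bp upstream of Mbs, with a signal of 249 and replicate ranks of 3965, 4425 and 4522. The intron region chr3L:16045356-16045615 had more spread replicate ranks, of 8150, 2091 and 6416. In Mbs, 9988 bp upstream of Diap1, chr3L:16060845-16061047 had a signal of 488 and ranks of 1447, 1727 and 1627.

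**Figure D4:**
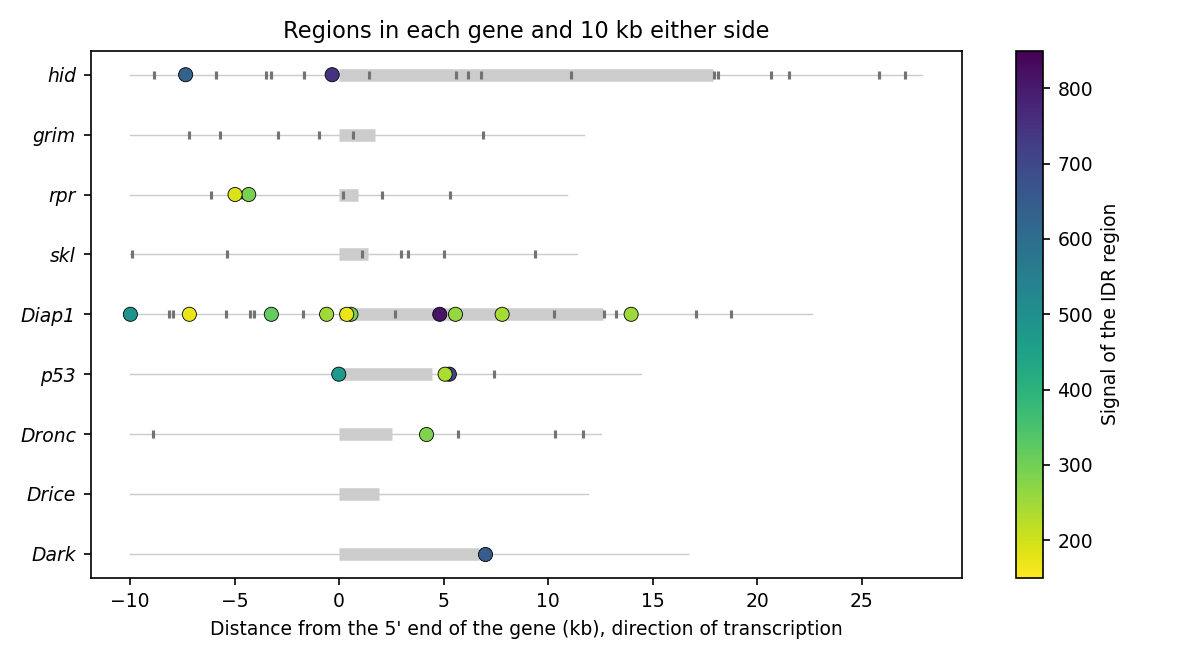
IDR regions (circles, coloured by signal) and the other pooled regions (ticks) in each gene (thick bar) and 10 kb either side, against distance in kb from the 5′ end of the gene. Diap1 carries 10 circles; hid and p53 have a circle next to the start, rpr has its circles upstream, Dronc and Dark have theirs past the gene's end, and grim, skl and Drice have none.

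p53 (FBgn0039044, chr3R:23049657-23054082, minus strand, 3 TSSs) had an IDR region on its promoter and another interval past its 3′ end. The promoter region, chr3R:23054047-23054250, had its summit 18 bp upstream of a TSS, a signal of 473 and rank 1560, and ranked 1684, 2259 and 1192 in the replicates. It also overlaps the antisense gene asRNA:CR46089. The interval chr3R:23048670-23049070 is listed with 2 summits, of signal 708 (rank 848) and 239 (rank 3887), 597 bp and 800 bp from the TSS of the neighbour CG17121. At the stronger summit the replicates ranked 878, 924 and 999. Near the weaker one, replicate 1 had a region of its own at rank 2277 and replicate 2 one at rank 5374, with summits 16 bp and 2 bp away, and replicate 3 listed none apart from that of rank 999. The nearest TSS of the stronger one is therefore not that of p53, from which it lies 2419 bp away.

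At the caspases and their adaptor, the IDR summits lay at the start sites of neighbours. Dronc (FBgn0026404, chr3L:9968479-9971002, plus strand) had 1, chr3L:9972422-9972885, with a signal of 284, rank 3140 and replicate ranks of 3477, 3930 and 2580. It lay 4174 bp from the Dronc TSS and 103 bp from a TSS shared by vnc and CG42455. Dark (FBgn0263864, chr2R:17020027-17026703, plus strand) had 1, chr2R:17026877-17027229, with a signal of 646, rank 979 and replicate ranks of 1355, 825 and 996. It lay 6965 bp from the Dark TSS, past the 3′ end, and 198 bp from the TSS of RhoGEF2. At the Dark TSS itself neither the pooled list nor replicate 2 had a region, while replicates 1 and 3 had weak ones, whose summits lay 61 bp downstream at rank 18946 and 42 bp upstream at rank 8660.

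Drice (FBgn0019972, chr3R:29799658-29801584, plus strand) was the emptiest of the 9. The pooled list, replicate 1 and replicate 2 had no region within 10 kb. Replicate 3 had a single one, chr3R:29799517-29799695, and it was high in that list, with rank 1065, a signal of 184 in the replicate's own list and a −log10 q of 3.76, its summit 43 bp upstream of the Drice TSS. Among the 5683 strongest regions of replicate 3, 7.14% overlapped no pooled region, and 5.33% and 6.51% in replicates 1 and 2. The region is thus a value of 1 replicate of 3. The nearest IDR summit was 17.6 kb away, 589 bp from a TSS of kay, the fly Fos gene, and ranked 5577.

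Counted together, 6 of the 9 genes met the rule, beside 56.9% of all protein-coding genes, a share near the background. With 5 kb either side the count was 6, beside 42.0%, and with 1 kb it was 4, beside 24.8%. Counting the gene body and 1 kb upstream left 3, hid, Diap1 and p53, beside 22.3%. By nearest TSS of an IDR summit the count was 5, beside 21.9%: hid, grim, rpr, Diap1 and p53, with grim reached from 44348 bp and 45089 bp away.

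Sequence at the summits was searched on both strands within 100 bp. A Sox core was found in 13 of the 35 regions (37.1%, exact 95% interval 21.5 to 55.1), beside 24.9% of all IDR regions, a share inside that interval. Within 50 bp of the summit it was found in 10 (28.6%, 14.6 to 46.3), beside 13.3% of all, which lies below the interval, and over whole regions in 54.3% (36.6 to 71.2), beside 43.0%. The reading against all IDR regions thus changes with the window. In the stretch 8 of 18 held one. At hid the core was found in both summit windows. At rpr it was found at the region of rank 5100 and not at that of rank 3033. Of the p53 summits, those of rank 1560 and 3887 had a core and the strongest, of rank 848, had none. Among the 10 Diap1 regions only those of rank 652 and 3689 had one. Dronc and Dark had 1 window each, without a core. TATCGATA, the letters of the DNA replication-related element, was found in 2 regions, beside 1.79% of all: the p53 promoter region held 2 copies and the region between Diap1 and Mbs held 1. GAGAG was found in 4 regions, beside 19.3% of all. CAGCTG was found in 2, beside 6.00%, and TAATTA in 5, beside 20.7%. GATA preceded by T or A and followed by A or G was found in 14, beside 42.2%. A match is a description of the letters and not a bound site.

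**Figure D5:**
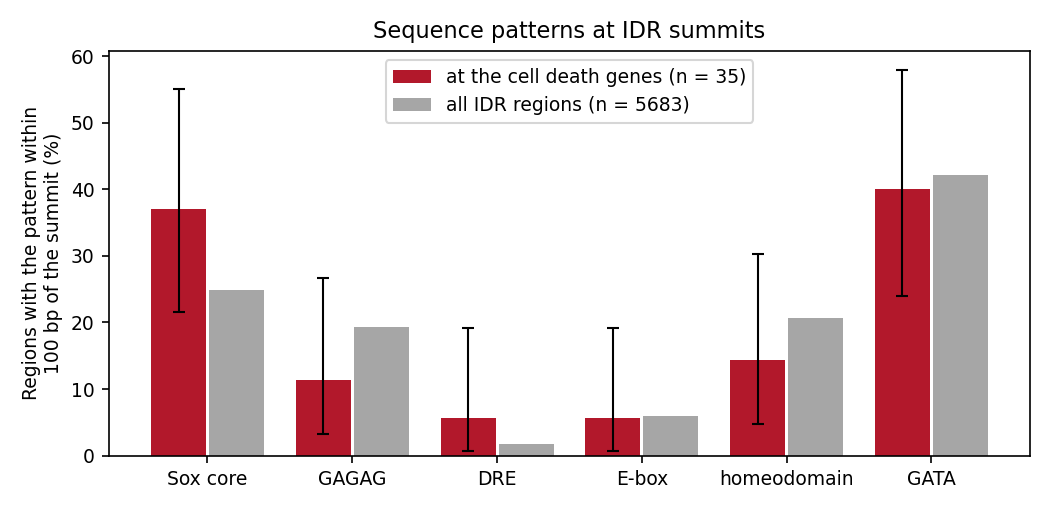
Share of the 35 IDR regions at the cell death genes (red, with exact 95% intervals that cover counting only) and of all 5683 IDR regions (grey) that hold each pattern within 100 bp of the summit; DRE stands for TATCGATA, E-box for CAGCTG and homeodomain for TAATTA. The Sox core is in 37.1% and 24.9%, and at this window each grey bar lies inside the red interval.

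The same letters were searched from 250 bp before to 50 bp after the 5′ end of each gene in the release 6 genome. The promoters of hid, grim, rpr, skl and Diap1 held GAGAG, which 36.4% of all genes have, so every inducer gene had it, whether or not an IDR region lay nearby. A Sox core was found at grim, Diap1, p53 and Drice, beside 37.6% of genes, and TATCGATA at Diap1 and p53, beside 10.2%. CAGCTG was found at Diap1 alone, beside 22.3% of genes, the GATA site at p53 alone, beside 53.6%, and TAATTA at none of the 9, beside 24.3%. Of these promoters with a core, grim and Drice had no IDR summit within 10 kb.

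Of 41 other cell death genes, 32 (78.0%) met the same rule of an IDR summit no more than 10 kb away, beside the 56.9% of all protein-coding genes, and 20 (48.8%) in the body or 1 kb upstream, beside 22.3%. The list was chosen with earlier results of these data known, and its median gene length of 3002 bp exceeds the 2166 bp of all genes, whose part in the count was not tested. By role, 3 of 5 further caspases had a summit within 10 kb, as did both Bcl-2 family genes and both cytochrome c genes. So did 4 of 4 genes listed under inhibitor turnover and inhibitor antagonists, and 5 of 5 of the DNA damage circuit. The same held for 7 of 9 of the TNF and JNK route, 5 of 7 nucleases and inhibitors, and 4 of 5 engulfment genes. The other inhibitor of apoptosis genes, Diap2 and Bruce, had none.

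In several of these genes the strongest region lay in the gene or within 1 kb upstream. In puc, the phosphatase that limits JNK signalling, 7 IDR regions lay within 10 kb, and the strongest, of signal 777, was in its intron. ced-6, an adaptor of engulfment, also had 7, with the strongest, of signal 928 and replicate ranks 498, 480 and 624, lying 359 bp upstream of a TSS. bsk, the fly JNK, had one of signal 511 at 137 bp from a TSS, NimC4, a receptor for dead cells, one of signal 295 at 273 bp upstream, in an intron of nAChRalpha5, and Debcl, a Bcl-2 family gene, one of signal 236 at 244 bp upstream. Fsn, an F-box gene, had one of signal 744 at 874 bp upstream, in an intron of Dp, whose TSS was closer, at 258 bp.

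In others the strongest region lay nearer to the TSS of a neighbour, and some of these genes had a weaker one of their own. For tefu, the fly ATM kinase, the region of signal 2868 and rank 16 lay 127 bp from the TSS of Art3 and 12701 bp from that of tefu, which had a region of rank 4647 at 252 bp upstream. For morgue, which acts in Diap1 turnover, the region of signal 1473 lay 122 bp from the TSS of MFS18, and for eIF3m, listed in cell death work as Tango7, the region of signal 1357 lay 134 bp from that of CG13016, beside one of rank 3231 at 61 bp from its own. Cyt-c-d and Cyt-c-p share a region of signal 1407 and rank 219, in an intron of Cyt-c-d and 129 bp from the TSS of CG31808, and Cyt-c-p had another of rank 511 in its own body. The caspase gene Dredd had its strongest region, of signal 446, 21 bp from the TSS of RpL36, Decay had one of signal 515 at 3441 bp from its TSS and another of rank 4161 at 469 bp upstream, and Strica one of signal 207 near Pngl. For Buffy the signal was 284, at 114 bp from CG13197.

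The kinase gene mei-41, the fly ATR, had a region of signal 698 in an intron of CG9992, and Xrp1, a gene induced by p53, one of signal 520 at 61 bp from the TSS of CG42613 and another of rank 3602 at 570 bp upstream of its own. grnd, a TNF receptor gene, had one of signal 942 in an intron of CG10283 and another of rank 3247 at 497 bp upstream. In the nuclease group the strongest regions of AIF (signal 538) and EndoG (signal 495) lay in introns of aop and Oda. Drep4 had one of signal 520 and rank 1371 at CG31729 and another, of rank 1397, 146 bp upstream of its own TSS. For crq, the receptor croquemort, the region of signal 314 lay in an intron of ex.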

How the data were processed

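The authors deposited 5 region lists on dm6: 1 per replicate, 1 from pooled replicates, and 1 that passed an irreproducible discovery rate (IDR) threshold. The label of the pooled list describes it as peaks and background for input to IDR. The signal of each region is the authors' value, on a scale not stated, and served only for ranks inside its own list. Each −log10 q-value is as deposited by the authors. Which aligner, peak caller, software versions and IDR cut-off were used is not given in the sources used here. Libraries listed as controls were not used here. The age field gives no usable embryo age, so the collection window came from the source label. The summit offset was read as counted from 1, since it was never 0 and equalled the region width in 17 regions. All regions lay within the release 6 arm lengths. Genes came from Ensembl release 115 and sequence from the release 6 RefSeq genome.

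Ranks, distances to the nearest TSS, counts and exact binomial intervals were computed with Python 3.11.15, NumPy 2.4.6 and SciPy 1.17.1, and the steps were tested on simulated data. No test was run, since there is 1 group. Background shares are the same count over all protein-coding genes, IDR regions or windows. All 9 genes are named, with up to 3 genes per role of the wider list by highest signal, and the genes of the stretch that hold or are nearest to an IDR summit. Genes and lists were chosen with earlier results of these data known. Alternatives were other distances, assignment to the nearest TSS, the 2841 strongest IDR regions, any base in place of the summit, other ends of the stretch, stricter overlap, other windows for the Sox core, leaving out each replicate, and, added after seeing the data, an offset counted from 0.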

Additional observations from a re-analysis of the deposited data

How the results depend on the processing

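Under the alternatives 48 values stayed within 1.5 times the reported count or inside the exact interval of the reported value, and 10 did not. The 48 include 4 genes with 1 kb either side, 22 of the other genes with 1 kb, and Sox cores in 54.3% over whole regions. Counting the gene body and 1 kb upstream gave 3 of the 9 genes in place of 6, 8 regions in place of 19, and 20 of the 41 other cell death genes in place of 32. Regions at the 9 genes were 11 with 1 kb either side, 12 by nearest TSS and 8 among the 2841 strongest IDR regions. By nearest TSS 17 of the other genes had one. These 2841 left 11 of 18 summits in the stretch, and the density ratio of the stretch stayed between 1.56 and 2.03. The share overlapped in all 3 replicates fell from 80.0% to 42.9% when 50% of both regions had to overlap, and to 40.0% with the 2841 strongest regions of each replicate. Leaving out each replicate in turn gave 6 of the 9 genes each time, beside 50.7%, 49.8% and 50.4% of all genes, 16 to 17 regions, 29 other genes, 14 summits in the stretch, ratios of 1.66 to 1.72, shares of 80.0 to 82.9% and Sox cores in 35.7 to 37.9%; it removes regions by construction, since it keeps IDR regions strong in both others. An offset counted from 0 put the Sox core at 40.0%. Depth is unknown, and each list ends at 30000 regions, so a site with no listed region, as at Drice in the pooled list, may still carry weak signal.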
